A study of Mus musculus with 18 samples.

Results

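The transcriptional response of bone-marrow-derived macrophages to lipopolysaccharide (LPS, the outer membrane glycolipid of Gram-negative bacteria) was described across all genes in 6 of the 18 polyA RNA-seq libraries of a mouse study. These were the macrophages grown from the arm that received PBS, the vehicle, in vivo: 3 libraries of cells exposed to LPS in the dish and 3 of cells that were not. They were chosen by the arm and the in vitro condition that the library titles and the matching count columns give, with no use of expression values. The study has 6 groups of 3 libraries, made from wild-type C57BL/6J mice after PBS, 1xLPS or 4xLPS in vivo, each with and without LPS in vitro. All of the cells were differentiated from bone marrow and cultured in F12 DMEM with 10% FBS, so the model holds no tissue environment. The dose and duration of the in vitro exposure, the age of the mice and the number of animals behind a group are not given in the labels used here. The p-values therefore measure the spread between libraries, which may be technical.

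The labels disagree on the arm. For 12 of the 18 libraries the treatment tag names another in vivo arm than the title, with PBS and 4xLPS exchanged. The count columns carry the arm of the title in 18 of 18 cases, and equally the arm of the tag of the library whose number they carry in 18 of 18. Both labels give the same in vitro condition for 18 of 18 libraries, so the contrast of LPS with no LPS does not depend on which label is right. The name of the arm does: if the tag of the same-titled library were correct, the 6 libraries described here would be those of the 4xLPS arm.

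LPS is bound by CD14 and the TLR4 and MD-2 receptor complex on the macrophage surface. The receptor signals through the adaptor MyD88 to the transcription factors NF-kappaB and AP-1, and through the adaptor TRIF to IRF3 and interferon beta, which in turn drives STAT-dependent interferon-stimulated genes. Macrophages are known to answer with cytokines, chemokines, antimicrobial enzymes and a set of inhibitors that limit the same pathway.

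The genes with the largest rises included several whose promoters hold letters typical of these factors. The promoters of 6 genes are printed. These are the first 6, by size of rise among the 15 genes with the largest rises, with 1 RefSeq promoter and at least 1 match. Il12b, which ranked above them, was passed over by that rule. Printing stopped at 6, so this is not a count of matching genes among the 15. Each is the run of 250 bases before the RefSeq gene start (build GRCm38.p6), written 5′ to 3′ on the strand of the gene. Capitals mark matches to GGGNNTTTC or GGGNNTTCC (spellings of the NF-kappaB site), GAAANNGAA (resembling an interferon response element), TGANTCA (AP-1) or TATAAA (the TATA box), read on both strands. The printed matches do not overlap one another.
Cxcl2: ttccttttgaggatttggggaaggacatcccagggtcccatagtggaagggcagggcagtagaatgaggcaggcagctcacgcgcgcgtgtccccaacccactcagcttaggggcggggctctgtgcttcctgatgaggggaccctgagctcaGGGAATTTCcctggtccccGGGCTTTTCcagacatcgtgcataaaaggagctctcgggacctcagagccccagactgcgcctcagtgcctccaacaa
Irg1: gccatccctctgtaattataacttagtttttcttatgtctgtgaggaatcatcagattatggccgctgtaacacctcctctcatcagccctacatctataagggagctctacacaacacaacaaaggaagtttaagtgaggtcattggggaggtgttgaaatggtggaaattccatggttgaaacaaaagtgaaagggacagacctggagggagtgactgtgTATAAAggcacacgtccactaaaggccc
Cxcl1: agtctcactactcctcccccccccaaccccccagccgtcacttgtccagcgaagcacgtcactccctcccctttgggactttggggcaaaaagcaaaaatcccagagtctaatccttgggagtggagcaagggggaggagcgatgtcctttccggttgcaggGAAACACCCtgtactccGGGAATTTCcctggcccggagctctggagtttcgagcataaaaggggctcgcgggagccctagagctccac
Cxcl10: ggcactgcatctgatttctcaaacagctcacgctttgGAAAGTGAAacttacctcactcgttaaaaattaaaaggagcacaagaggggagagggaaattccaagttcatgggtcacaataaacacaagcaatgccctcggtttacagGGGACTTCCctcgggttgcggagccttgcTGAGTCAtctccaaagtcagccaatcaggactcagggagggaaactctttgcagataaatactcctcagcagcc
Gbp5: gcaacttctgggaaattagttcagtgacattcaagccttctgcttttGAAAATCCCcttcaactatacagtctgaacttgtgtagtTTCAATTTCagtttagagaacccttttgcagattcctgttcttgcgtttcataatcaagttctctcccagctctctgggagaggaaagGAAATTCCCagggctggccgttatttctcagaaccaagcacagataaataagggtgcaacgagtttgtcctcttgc
Cxcl3: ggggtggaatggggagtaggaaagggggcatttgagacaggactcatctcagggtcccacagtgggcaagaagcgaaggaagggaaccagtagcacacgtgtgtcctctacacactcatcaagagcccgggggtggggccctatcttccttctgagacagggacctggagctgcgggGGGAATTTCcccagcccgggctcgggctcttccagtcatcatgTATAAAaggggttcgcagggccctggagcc
Cxcl2, a neutrophil chemokine, lies at chr5:90903649-90903898 on the plus strand. Irg1 (current symbol Acod1), the enzyme that makes itaconate, lies at chr14:103046762-103047011 on the plus strand. Cxcl1, another neutrophil chemokine, lies at chr5:90890995-90891244 on the plus strand, and Cxcl3, of the same family, at chr5:90785851-90786100 on the plus strand. Cxcl10, an interferon-inducible attractant of T cells, lies at chr5:92348890-92349139 on the minus strand. Gbp5, an interferon-inducible GTPase, lies at chr3:142496684-142496933 on the plus strand. In Cxcl1, Cxcl2 and Cxcl3 a GGGNNTTTC match ended 63, 70 and 65 bases before the start, and in Cxcl10 a TGANTCA match ended 68 bases and a GGGNNTTCC match 95 bases before it. The TATAAA of Irg1 ended 23 bases and that of Cxcl3 25 bases before the start.

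Among 7634 tested genes with 1 RefSeq promoter, GGGNNTTTC or GGGNNTTCC was found in 9.27%. The share was 14.5% of the 235 promoters of genes that rose at least 4-fold, 19.7% of the 66 promoters of the subset that rose at least 16-fold, and 11.8% of the 102 promoters of genes that fell at least 4-fold. GAAANNGAA stood in 6.38% of all promoters, 16.6% of those that rose at least 4-fold and 6.86% of those that fell at least 4-fold. TGANTCA stood in 4.04% of all, 10.2% of the risen and 9.80% of the fallen, and TATAAA in 6.25%, 14.0% and 7.84%. The median number of CpG dinucleotides was 16 in all promoters, 9 in those that rose at least 4-fold, 4 in those that rose at least 16-fold and 10 in those that fell at least 4-fold. These shares are descriptions, since a match is not evidence of binding and base composition differs between the classes.

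Of 14158 genes tested, 3579 (25.3%) passed an adjusted p of 0.05 between the 3 stimulated and the 3 unstimulated libraries, 1982 (14.0%) higher and 1597 (11.3%) lower with LPS. Adjusted p-values below come from a quasi-likelihood test in edgeR of the deposited counts, with Benjamini-Hochberg correction over all genes tested, and rose and fell are used for genes past 0.05. Counts in the gene lists below are to be read against the shares of all genes tested, 14.0% higher and 11.3% lower. In the gene lists below, counts of fewer than 5 calls moved easily when single libraries were left out, and larger counts that did so by more than 1.5 times are given with the library. Fold changes are log2 values of stimulated over unstimulated. The value after ± is the size of the log2 fold change divided by the square root of the quasi-likelihood F statistic. It stands in for a standard error, which was not estimated directly. The response was lopsided towards strong rises. A change of at least 2-fold was found for 992 genes up and 847 down, of at least 4-fold for 369 and 214, of at least 16-fold for 93 and 13, and of at least 64-fold for 28 and 1. All 3 stimulated libraries lay above all 3 unstimulated ones for 3406 genes (24.1%) and below them for 3314 (23.4%), without regard to the test. The direction is relative to a TMM scaling in which the median gene moved by -0.02. Scaling to library totals instead moved that median by -0.21, to -0.23, and changed the split of calls to 1239 higher and 2723 lower, so that 31.3% instead of 55.4% of the called genes were higher.

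**Figure D1:**
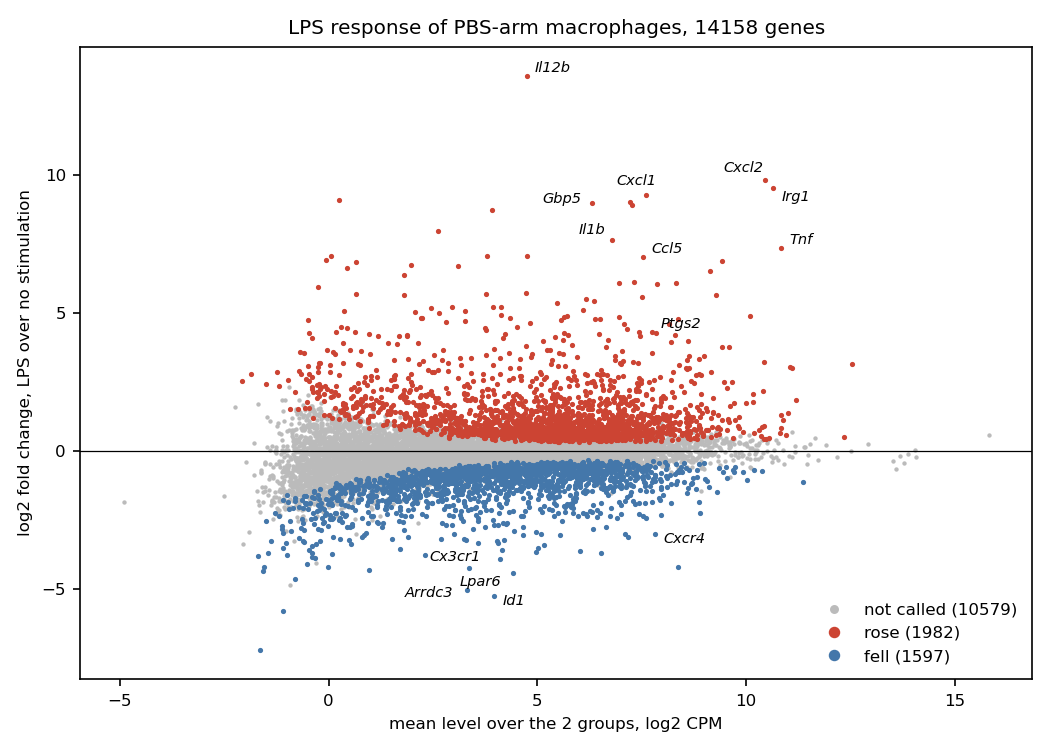
Log2 fold change of stimulated over unstimulated macrophages (vertical) against the log2 of the mean CPM of the 6 libraries (horizontal) for the 14158 genes tested. The 1982 genes that rose are red, the 1597 that fell are blue and the others are grey. The largest rises reach further from 0 than the largest falls.

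The risen genes held between 13.5% and 13.7% of all reads in the unstimulated libraries and between 26.9% and 29.5% in the stimulated ones. The fallen genes went from between 11.5% and 12.0% to between 4.74% and 5.64% of reads. The 10 genes with the largest gain in CPM (counts per 1000000, after TMM scaling) went together from between 0.787% and 0.883% to between 3.06% and 4.27% of reads. A mean under 1 CPM without LPS and of at least 5 CPM with it was seen for 43 genes, and the reverse for 9. Fewer cells of a type and less RNA per cell cannot be told apart in these bulk libraries.

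Depth was 33340404, 26022517 and 26355647 counted reads in unstimulated libraries 1 to 3 and 15347788, 23629185 and 54050622 in stimulated libraries 1 to 3, within the series range of 9296453 to 54050622. CPM values below are given in that order, unstimulated first. The 2 conditions separated on the first principal component, which held 68.7% of the variance of the 6 libraries. The second held 14.4% and spread the stimulated libraries, with library 3 at 49.5, library 1 at -34.5 and library 2 at -12.6. Stimulated library 3, the deepest of the 18, was the lowest of the 3 stimulated libraries in 258 of 369 genes that rose at least 4-fold and in 82 of 93 that rose at least 16-fold. Library 1, the shallowest of the 6, was the highest in 229 and in 72. Without library 3, 377 genes rose and 230 fell at least 4-fold, and 99 rose and 15 fell at least 16-fold. Without stimulated library 2, the number that fell at least 16-fold was 27 in place of 13. The part of depth in this spread was not tested.

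**Figure D2:**
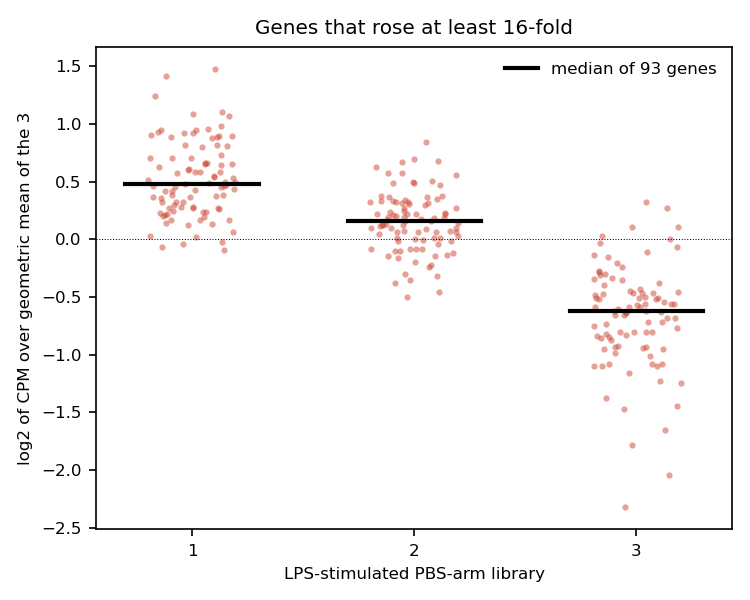
For the 93 genes that rose at least 16-fold, the log2 ratio of each stimulated library's CPM to the geometric mean of the 3 (vertical) is shown per library (horizontal), 1 point a gene. The medians are 0.48 in library 1, 0.16 in library 2 and -0.62 in library 3, so library 3 lies below the others for most of these genes.

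Il12b, Cxcl2, Irg1 and Nos2 were among the 15 genes with the largest rises. Il12b, the p40 subunit shared by interleukins 12 and 23, had no count in any unstimulated library and 83.8, 61.3 and 16.0 CPM in the stimulated ones, at least 1137-fold higher against a floor of 3 counts over the group (edgeR adjusted p = 1.53e-06). Cxcl2 rose from 2.05, 3.50 and 3.77 to 3436, 3658 and 1359 CPM (log2 fold change 9.83 ± 0.53, edgeR adjusted p = 2.02e-10). Irg1 rose from 4.36, 4.58 and 4.16 to 4243, 3307 and 2092 CPM (log2 fold change 9.52 ± 0.35, edgeR adjusted p = 5.68e-12). Nos2, the inducible nitric oxide synthase, rose from 0.146, 0.0358 and 0 to 33.4, 40.9 and 15.7 CPM (log2 fold change 8.73 ± 0.57, edgeR adjusted p = 2.36e-09). In all 4 the groups were far apart, where groups without overlap were a condition of the choice. Stimulated library 3 was the lowest of its group in all 4. Hcar2, a receptor for nicotinic acid and beta-hydroxybutyrate, rose from 0.292, 0.536 and 0.359 to 68.7, 52.8 and 39.9 CPM (log2 fold change 7.08 ± 0.39, edgeR adjusted p = 2.45e-10). Cd69, an early activation marker of lymphocytes that macrophages also carry, rose from 0.175, 0.393 and 0.0359 to 39.0, 24.4 and 18.8 CPM (log2 fold change 7.06 ± 0.52, edgeR adjusted p = 1.02e-08). Shisa3 rose from 0.0877, 0.0358 and 0 to 18.7, 15.1 and 3.00 CPM (log2 fold change 7.97 ± 1.04, edgeR adjusted p = 1.16e-05), with library 3 again lowest. Among the 10 largest gains in CPM, Sqstm1, the autophagy receptor p62, rose from 1256, 1203 and 1195 to 12045, 11586 and 8646 CPM (log2 fold change 3.14 ± 0.18, edgeR adjusted p = 4.82e-10). Rassf4 rose from 304, 248 and 241 to 2690, 2461 and 2371 CPM (log2 fold change 3.25 ± 0.21, edgeR adjusted p = 1.97e-09). Tnfaip2 rose from 506, 464 and 486 to 4115, 4305 and 3426 CPM (log2 fold change 3.02 ± 0.17, edgeR adjusted p = 2.61e-10). The stimulated libraries lay closer together for Sqstm1, Rassf4 and Tnfaip2 than for Cxcl2 and Irg1, which were abundant too. Exons of Shisa3, Sqstm1 and Tnfaip2 overlap those of other annotated genes, so their reads may be shared.

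**Figure D3:**
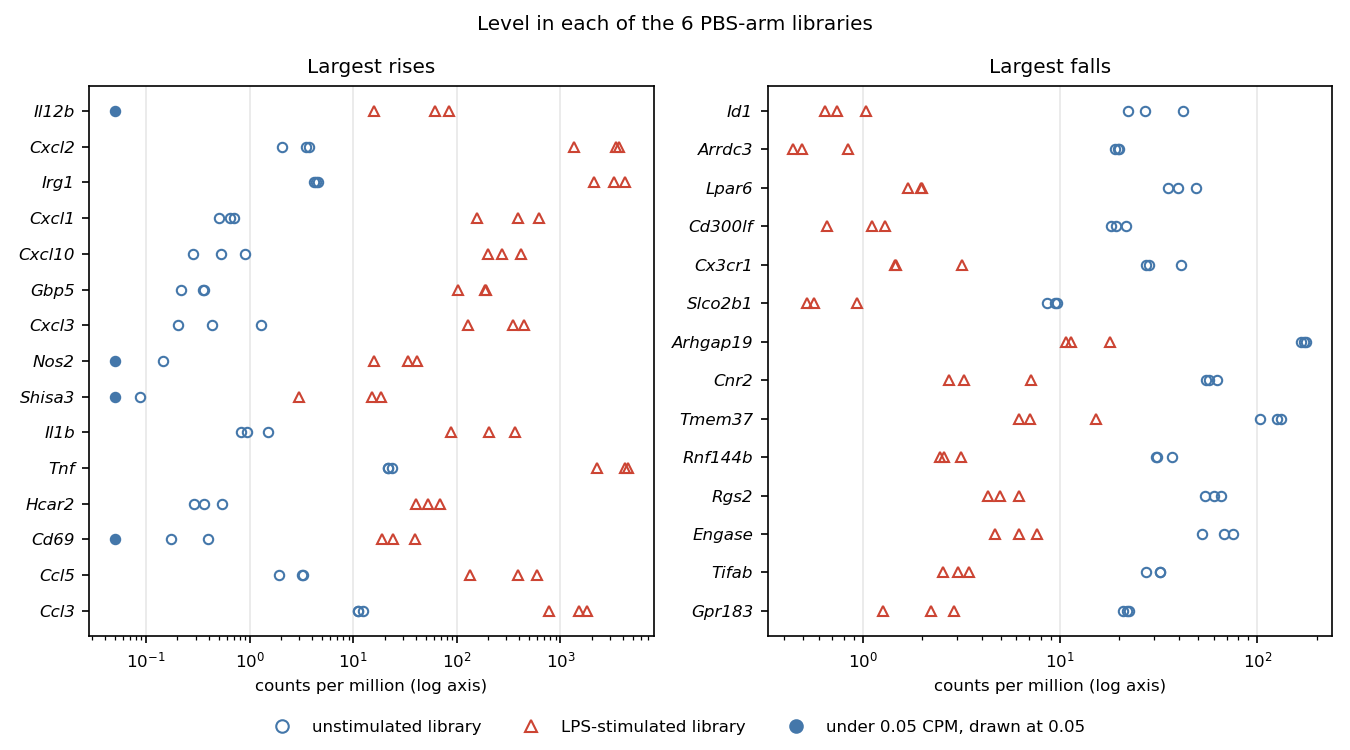
CPM (horizontal, log axis) in each of the 6 libraries for the 15 genes with the largest rises and 14 of the 15 with the largest falls (vertical). Values under 0.05 CPM are drawn at 0.05. For each gene the 3 stimulated libraries stand apart from the 3 unstimulated ones, because only genes without overlap of the groups were chosen. For most of the risen genes stimulated library 3 is the lowest of its group.

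Id1, Arrdc3 and Lpar6 were among the 15 genes with the largest falls. Id1, which blocks basic helix-loop-helix factors, fell from 26.9, 41.8 and 22.2 to 0.742, 1.03 and 0.648 CPM (log2 fold change -5.26 ± 0.44, edgeR adjusted p = 5.28e-08). Arrdc3, an alpha-arrestin that directs receptors to degradation, fell from 19.8, 19.0 and 19.6 to 0.445, 0.847 and 0.491 CPM (log2 fold change -5.04 ± 0.63, edgeR adjusted p = 7.08e-06). The groups of both genes stood far apart. Lpar6, a receptor for lysophosphatidic acid, fell from 35.3, 39.8 and 48.7 to 1.71, 1.98 and 2.00 CPM (log2 fold change -4.43 ± 0.23, edgeR adjusted p = 1.29e-10). Cd300lf, an inhibitory receptor for phospholipids, fell from 18.0, 19.2 and 21.5 to 1.11, 0.659 and 1.30 CPM (log2 fold change -4.22 ± 0.43, edgeR adjusted p = 6.97e-07). Arhgap19, which codes for a GTPase-activating protein, fell from 172, 177 and 167 to 10.7, 11.4 and 17.9 CPM (log2 fold change -3.68 ± 0.29, edgeR adjusted p = 2.50e-08). Arhgap19 was somewhat higher in stimulated library 3 than in the others. Rgs2, which speeds the shut-off of G proteins, fell from 65.5, 60.1 and 53.991 to 4.30, 4.99 and 6.20 CPM (log2 fold change -3.51 ± 0.20, edgeR adjusted p = 3.58e-10). Tifab, which restrains the adaptor TRAF6, fell from 32.2, 27.3 and 32.2 to 3.04, 2.54 and 3.47 CPM (log2 fold change -3.33 ± 0.27, edgeR adjusted p = 3.98e-08). Dgkz, a diacylglycerol kinase, had one of the 10 largest losses in CPM and fell from 886, 759.6 and 703 to 147, 165 and 184 CPM (log2 fold change -2.24 ± 0.20, edgeR adjusted p = 8.68e-08). No stimulated library reached the unstimulated range for any of these 8 genes. For genes picked as the largest falls, this was a condition of the choice. Exons of Lpar6 and Dgkz overlap those of other annotated genes, and Cd300lf has near-identical copies elsewhere in the genome, so their reads may be shared.

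At the receptor, the gene for the co-receptor moved and that for the receptor did not pass the test. Cd14 rose from 446, 494 and 436 to 4562, 4386 and 2534 CPM (log2 fold change 3.06 ± 0.34, edgeR adjusted p = 1.56e-06). Tlr4 stood at 39.4, 48.9 and 41.2 CPM without and 52.9, 38.0 and 45.5 CPM with LPS (log2 fold change 0.07 ± 0.22, edgeR adjusted p = 0.84), with overlapping groups. Over a list of 30 genes of the TLR4 complex and its signal transduction, 16 rose and 2 fell, with a median log2 fold change of 0.64 against -0.02 over all genes tested. Traf1, an adaptor of TNF receptors, rose from 8.89, 6.54 and 6.92 to 433, 396 and 241 CPM (log2 fold change 5.58 ± 0.25, edgeR adjusted p = 4.94e-11). Irak3, the kinase-like inhibitor of IRAK signalling, rose from 25.5, 22.7 and 21.96 to 165, 118 and 118 CPM (log2 fold change 2.52 ± 0.18). The ubiquitin ligase Birc3 rose from 35.7, 33.6 and 30.7 to 257, 181 and 201 CPM (log2 fold change 2.68 ± 0.17). Peli1, also a ubiquitin ligase, rose from 36.4, 34.9 and 31.4 to 219, 163 and 162 CPM (log2 fold change 2.40 ± 0.16). Stimulated library 1 was the highest for Irak3, Birc3 and Peli1. Peli2, of the same Pellino family as Peli1, fell from 40.8, 42.7 and 46.4 to 15.1, 23.5 and 22.997 CPM (log2 fold change -1.07 ± 0.16). Ikbke, a kinase of IRF3, rose (log2 fold change 2.09 ± 0.23). Tbk1, its relative, had values of 69.4, 62.7 and 69.7 CPM without and 110.2, 93.6 and 81.9 CPM with LPS (log2 fold change 0.50 ± 0.19, edgeR adjusted p = 0.060). Irak1 stood at 141, 141 and 135 CPM without and 153, 142 and 158 CPM with LPS (log2 fold change 0.12 ± 0.14, edgeR adjusted p = 0.56). Exons of Irak3, Peli2, Ikbke and Irak1 overlap those of other annotated genes, so their reads may be shared. Among the called genes with values here, Peli2 had the largest edgeR adjusted p, 7.23e-05.

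Other pattern sensors mostly moved upwards: 15 of 28 tested rose and 5 fell, with a median of 0.76. Nlrp3, the sensor of the best-known inflammasome, rose from 25.9, 21.03 and 24.9 to 1391, 1402 and 879 CPM (log2 fold change 5.68 ± 0.29, edgeR adjusted p = 1.23e-10). Nod2, a sensor of bacterial muramyl dipeptide, rose from 5.26, 4.65 and 4.48 to 106, 111 and 66.8 CPM (log2 fold change 4.30 ± 0.28). Ripk2, the kinase it signals through, rose from 13.5, 12.8 and 15.0 to 104, 102 and 102 CPM (log2 fold change 2.90 ± 0.15). The 3 stimulated values of Ripk2 were nearly equal, unlike those of Nlrp3 and Nod2. Casp4, the mouse caspase-11 that senses LPS in the cytosol, rose from 5.55, 5.76 and 5.67 to 74.8, 66.2 and 77.4 CPM (log2 fold change 3.69 ± 0.18, edgeR adjusted p = 9.01e-11). Tlr2, the sensor of bacterial lipoproteins, rose from 127, 111 and 106 to 734, 758 and 857 CPM (log2 fold change 2.77 ± 0.15). Casp4 and Tlr2 were both highest in stimulated library 3. Ifih1, the RNA sensor MDA5, rose from 18.9, 17.9 and 14.9 to 125, 118 and 68.6 CPM (log2 fold change 2.59 ± 0.28). Tlr8, an endosomal receptor, fell from 73.9, 75.0 and 53.5 to 30.4, 24.9 and 20.01 CPM (log2 fold change -1.43 ± 0.27). Tlr7 stood at 66.1, 72.1 and 59.6 CPM without and 76.8, 65.6 and 59.6 CPM with LPS (log2 fold change 0.03 ± 0.19, edgeR adjusted p = 0.93), with overlapping groups. The edgeR adjusted p of the called genes given was at most 6.26e-04, that of Tlr8. There were 2 to 3 sensors that fell, in place of 5, without unstimulated library 1, 2 or 3 or stimulated library 1 or 2, and 2 with the replicate block.

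Genes of the NF-kappaB system rose together, subunits and inhibitors alike. Of 19 tested, 15 rose and 0 fell, with a median of 1.96: the subunits Rel, Rela, Relb, Nfkb1 and Nfkb2, the IkappaB proteins Nfkbia, Nfkbib, Nfkbie, Nfkbiz and Bcl3, the ubiquitin editors Tnfaip3 and Cyld with Tnip1 and Tnip3, and Ikbkg. Nfkbiz, the atypical IkappaB needed for secondary genes such as Il6, rose from 15.8, 15.9 and 17.2 to 381, 378 and 230.2 CPM (log2 fold change 4.34 ± 0.33, edgeR adjusted p = 1.69e-08). Tnfaip3 (A20) rose from 45.1, 44.3 and 50.6 to 806, 872 and 539.9 CPM (log2 fold change 3.99 ± 0.30, edgeR adjusted p = 1.49e-08). Both were lowest in stimulated library 3. Nfkbie, which holds NF-kappaB in the cytoplasm, rose from 32.9, 37.8 and 28.7 to 415, 402 and 367 CPM (log2 fold change 3.58 ± 0.15). Nfkbia, with the same role, rose from 90.5, 84.8 and 81.2 to 829, 966 and 1027 CPM (log2 fold change 3.46 ± 0.19). Nfkbia was highest in stimulated library 3, the reverse of the order seen for most strong risers. Ikbkb, the catalytic kinase, had values of 129, 108 and 132 CPM without and 169.6, 141 and 137 CPM with LPS (log2 fold change 0.28 ± 0.12, edgeR adjusted p = 0.11). Nfkbiz, with an edgeR adjusted p of 1.69e-08, was the closest to the threshold among the called genes with values here.

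Immediate early factors split. In a list of 28, 11 rose and 6 fell, with a median of 0.29. Maff, a small Maf protein, rose from 7.81, 8.33 and 7.53 to 114, 99.6 and 56.5 CPM (log2 fold change 3.51 ± 0.27). Batf, a partner of Jun proteins, rose from 4.24, 5.04 and 5.38 to 35.4, 21.1 and 13.5 CPM (log2 fold change 2.24 ± 0.31). Junb, an AP-1 subunit, rose from 132, 164 and 83.8 to 358, 302 and 237 CPM (log2 fold change 1.24 ± 0.22). All 3 were lowest in stimulated library 3, with no overlap of the groups. By contrast Fos, the classical AP-1 partner, fell from 176, 159 and 194 to 34.6, 40.6 and 50.5 CPM (log2 fold change -2.07 ± 0.23). Nr4a1, an orphan nuclear receptor, fell from 14.3, 15.0 and 18.5 to 5.93, 6.54 and 4.32 CPM (log2 fold change -1.52 ± 0.31). Klf10 fell from 51.2, 52.7 and 58.0 to 20.02, 24.0 and 21.996 CPM (log2 fold change -1.29 ± 0.25). Every stimulated library of these 3 genes lay below every unstimulated one. Atf3, a known inhibitor of LPS-induced genes, had overlapping groups, 282, 253 and 278 CPM without and 272, 289 and 279 CPM with LPS (log2 fold change 0.05 ± 0.16, edgeR adjusted p = 0.86). No called gene given here had an edgeR adjusted p above 0.0012, that of Nr4a1. Exons of Junb overlap those of other annotated genes, so their reads may be shared.

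Among IRF and STAT factors, 3 of 13 tested rose and 1 fell, 30.8% called against 25.3% of all genes, with a median of 0.16. Irf1 rose from 33.9, 29.1 and 32.6 to 558, 648 and 583 CPM (log2 fold change 4.22 ± 0.18, edgeR adjusted p = 4.56e-11), with nearly equal stimulated values. Irf8, a factor of the monocyte lineage, fell from 262, 252 and 255 to 86.3, 100.4 and 107 CPM (log2 fold change -1.39 ± 0.17, edgeR adjusted p = 5.47e-06). The other 2 that rose, Irf5 and Irf7, each lost their call in 8 of the alternatives tried, and the groups of Irf7 overlapped at 18.6, 18.0 and 8.72 CPM without and 65.7, 28.1 and 15.2 CPM with LPS. Exons of Irf1 and Irf7 overlap those of other annotated genes, so their reads may be shared.

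Factors known from the macrophage lineage divided almost evenly, 13 up and 11 down of 29, with a median of -0.22. The test was passed by 82.8% of the list, against 25.3% of all genes. Tfec, of the MiT family, rose from 5.47, 6.37 and 5.78 to 176, 171 and 136 CPM (log2 fold change 4.78 ± 0.25, edgeR adjusted p = 1.82e-10). Ets2 rose from 38.9, 38.3 and 31.0 to 645, 605 and 423 CPM (log2 fold change 3.95 ± 0.21). Cebpd rose from 16.4, 27.0 and 9.65 to 154, 112 and 102 CPM (log2 fold change 2.80 ± 0.32). Its relative Cebpa fell from 476, 497 and 408 to 110.5, 145 and 120.0 CPM (log2 fold change -1.88 ± 0.18). The groups stood apart for all 4. Cebpb had overlapping groups at 117, 193 and 81.4 CPM without and 277, 262 and 114 CPM with LPS (log2 fold change 0.74 ± 0.36, edgeR adjusted p = 0.14), with library 3 the lowest of its group in both conditions. Mef2c fell from 29.5, 25.8 and 24.6 to 7.94, 6.68 and 6.57 CPM (log2 fold change -1.92 ± 0.23), and Mitf, Klf7 and Hivep3 rose, with log2 fold changes of 1.68 ± 0.23, 2.21 ± 0.19 and 2.41 ± 0.18. The largest edgeR adjusted p among the called genes given here was 2.42e-05, of Mitf. Exons of Cebpd, Cebpa, Cebpb, Klf7 and Hivep3 overlap those of other annotated genes, so their reads may be shared.

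Inhibitors of signalling were called in both directions, 14 up and 7 down of 28, with a median of 0.47. Socs3, the brake on interleukin 6 receptor signalling, rose from 9.06, 12.4 and 10.0 to 304, 288 and 183 CPM (log2 fold change 4.62 ± 0.25, edgeR adjusted p = 1.88e-10). Dusp2, a phosphatase of MAP kinases, rose from 4.27, 4.54 and 4.27 to 56.1, 45.3 and 30.5 CPM (log2 fold change 3.33 ± 0.25). Dusp6, which acts on ERK, fell from 28.8, 35.6 and 35.0 to 3.63, 6.35 and 6.26 CPM (log2 fold change -2.59 ± 0.29). Dusp7, of the same group, fell from 58.0, 64.02 and 61.4 to 19.0, 19.9 and 22.1 CPM (log2 fold change -1.58 ± 0.18). The groups of these 4 genes did not overlap. Spred1 and Spry1 rose and Spry2, another Sprouty protein, fell, with log2 fold changes of 1.80 ± 0.19, 1.80 ± 0.40 and -1.73 ± 0.30. Inpp5d, the lipid phosphatase SHIP1, fell from 472, 371 and 409.6 to 70.4, 84.7 and 98.1 CPM (log2 fold change -2.31 ± 0.18). Cish rose (log2 fold change 2.23 ± 0.37). Regulators of mRNA decay showed a similar division, 7 up and 3 down of 24, with a median of 0.33. Zc3h12c, related to the nuclease Regnase-1, rose from 12.6, 13.1 and 10.7 to 224, 184 and 181 CPM (log2 fold change 4.01 ± 0.35). Zc3h12a (Regnase-1), which cuts cytokine mRNAs, rose from 42.0, 48.3 and 40.3 to 162, 184 and 115 CPM (log2 fold change 1.82 ± 0.23). Zc3h12d of the same family fell from 42.8, 44.3 and 41.5 to 10.5, 9.74 and 8.52 CPM (log2 fold change -2.17 ± 0.18). Members of 1 family thus moved in both directions. Zfp36 (tristetraprolin) rose and its relatives Zfp36l1 and Zfp36l2 fell, with log2 fold changes of 1.19 ± 0.17, -1.95 ± 0.19 and -1.36 ± 0.15. Among the called genes with values here, Spry1 had the largest edgeR adjusted p, 0.0026. Exons of Spry1, Cish, Zc3h12c, Zfp36, Zfp36l1 and Zfp36l2 overlap those of other annotated genes, so their reads may be shared.

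Cytokines of the interleukin 6 and 12 families had a median log2 fold change of 3.70 over 10 tested, with 6 up and 1 down. This median was 5.70 with the low-count filter applied within the 6 libraries, which tests fewer members, and 1.58 with limma on log2(CPM + 1), a scale that understates changes of low genes. Besides Il12b, Il23a, the p19 subunit of interleukin 23, had no count in any unstimulated library and 2.60, 3.10 and 1.39 CPM with LPS, at least 60.2-fold higher over the same floor (edgeR adjusted p = 3.87e-04). Il12a, the p35 subunit of interleukin 12, had 0.0292, 0 and 0 CPM without and 2.82, 2.26 and 1.14 CPM with LPS. Il27, the p28 chain of interleukin 27, rose from 0.643, 0.536 and 0.323 to 43.2, 26.8 and 10.9 CPM (log2 fold change 5.71 ± 0.57, edgeR adjusted p = 4.92e-07). Ebi3, its partner chain, rose from 34.7, 35.4 and 34.8 to 154, 118 and 68.7 CPM (log2 fold change 1.70 ± 0.27). Il6 rose from 0.0585, 0.107 and 0.0359 to 14.2, 6.96 and 2.16 CPM (log2 fold change 6.75 ± 1.06, edgeR adjusted p = 8.87e-05). Library 1 was highest and library 3 lowest for Il27, Ebi3 and Il6, with 2.16 CPM of Il6 in library 3 against 14.2 in library 1. Lif and Osm were not called, at log2 fold changes of 0.61 ± 0.40 and -0.58 ± 0.24. Il11, the 1 member that fell, was below 1 CPM in every library. Its call was lost without stimulated library 3 (edgeR adjusted p = 0.060) and with limma on log2(CPM + 1). Apart from Il11, the edgeR adjusted p of the called genes given was at most 3.87e-04, that of Il23a. Exons of Il27 and Ebi3 overlap those of other annotated genes, so their reads may be shared.

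Of the interleukin 1 family and its receptors, 6 of 10 tested rose and 0 fell, with a median of 0.87. Il1b rose from 1.49, 0.823 and 0.933 to 365, 205 and 88.4 CPM (log2 fold change 7.64 ± 0.57, edgeR adjusted p = 1.07e-08), a 4.13-fold spread among the stimulated libraries. Il1a rose from 0.380, 0.358 and 0.215 to 12.5, 10.7 and 4.32 CPM (log2 fold change 4.81 ± 0.69). Il1f9, interleukin 36 gamma, rose from 0.205, 0 and 0.215 to 4.89, 2.30 and 1.65 CPM (log2 fold change 4.30 ± 0.73). Il1rn, the receptor antagonist, rose from 17.5, 20.6 and 19.7 to 51.5, 44.2 and 42.6 CPM (log2 fold change 1.26 ± 0.17). The groups stood apart for all 4, with library 1 the highest. Other cytokines and growth factors gave 11 up and 8 down of 28, with a median of 0.46. That list also holds Saa3 and Lcn2, which rose, and Cytip, which fell, and these are not cytokines or growth factors. Tnf rose from 21.5, 23.6 and 21.6 to 4498, 4223 and 2240 CPM (log2 fold change 7.36 ± 0.35, edgeR adjusted p = 7.01e-11). Tnfsf9, the ligand 4-1BBL, rose from 3.74, 3.33 and 4.05 to 188, 192 and 103 CPM (log2 fold change 5.44 ± 0.30). Tnfsf4, the ligand OX40L, rose from 0.0292, 0.107 and 0.0359 to 2.97, 3.25 and 3.12 CPM (log2 fold change 5.69 ± 0.71). The stimulated values of Tnfsf4 were nearly equal. Saa3, an acute-phase protein, rose from 5.06, 4.61 and 3.73 to 565, 216 and 160.4 CPM (log2 fold change 6.13 ± 0.48, edgeR adjusted p = 2.01e-08). Saa3 was far higher in library 1 than in the other stimulated libraries. Csf2, which codes for GM-CSF, had 0.0292, 0.0358 and 0 CPM without LPS and 1.93, 2.16 and 0.883 CPM with it. Csf3, which codes for G-CSF, had 0.0292, 0 and 0.0359 CPM without and 5.64, 3.25 and 0.510 CPM with LPS. Library 3 held the least of both. Other members of the list fell. Hgf, the hepatocyte growth factor, fell from 20.4, 18.3 and 17.5 to 4.82, 4.47 and 6.55 CPM (log2 fold change -1.81 ± 0.23). Hbegf, an EGF receptor ligand, fell from 11.0, 11.3 and 13.8 to 2.52, 3.48 and 5.22 CPM (log2 fold change -1.65 ± 0.36). Il16 fell from 17.4, 14.8 and 17.2 to 3.93, 4.42 and 3.04 CPM (log2 fold change -2.13 ± 0.25). The stimulated values of all 3 lay below every unstimulated value. Igf1, Spp1 and Tgfb1 were not called, at log2 fold changes of -0.04 ± 0.16, 0.30 ± 0.19 and 0.39 ± 0.25. Hbegf, with an edgeR adjusted p of 0.0021, was the closest to the threshold among the called genes with values here. Exons of Il1b, Il1a, Tnfsf9, Csf2, Hgf, Il16 and Spp1 overlap those of other annotated genes, and Il1f9 has near-identical copies elsewhere in the genome, so their reads may be shared.

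Il10 and Ifnb1 were under the filter on low counts. Il10, an anti-inflammatory cytokine, had 23, 13 and 9 counts without and 7, 9 and 61 with LPS, which is 0.672, 0.465 and 0.323 CPM against 0.519, 0.423 and 1.20 CPM. Ifnb1, the interferon of the TRIF branch, had 2, 0 and 0 counts without and 5, 1 and 0 with LPS. In a fit with no filter neither passed the threshold, with an edgeR adjusted p of 0.61 for Il10 and 0.53 for Ifnb1.

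Chemokines rose in both classes. Of 11 CXC chemokines tested 7 rose and 2 fell, with a median of 2.36, and of 9 CC and other chemokines 8 rose and 0 fell, with a median of 3.86. Together they took 0.0574%, 0.0564% and 0.0580% of reads in the unstimulated libraries and 0.859%, 0.778% and 0.415% in the stimulated ones. Ccl3, which attracts leukocytes, rose from 11.1, 11.1 and 12.5 to 1790, 1523 and 781 CPM (log2 fold change 6.89 ± 0.35, edgeR adjusted p = 1.23e-10). Ccl4, its close relative, rose from 7.16, 6.62 and 6.74 to 670.3, 434 and 272 CPM (log2 fold change 6.06 ± 0.32). Ccl5 rose from 3.19, 1.93 and 3.26 to 589.9, 388 and 133 CPM (log2 fold change 7.04 ± 0.76, edgeR adjusted p = 1.21e-06), with a 4.43-fold spread among stimulated libraries. All 3 were highest in library 1 and lowest in library 3. Ccl2, the monocyte attractant, rose from 5.32, 9.94 and 6.89 to 104, 106 and 111 CPM (log2 fold change 3.86 ± 0.31) and was nearly equal in the 3 stimulated libraries. Ccl9, a ligand of CCR1, rose from 72.5, 70.5 and 69.2 to 849, 677 and 557 CPM (log2 fold change 3.30 ± 0.22). The interferon-inducible Cxcl10 rose from 0.526, 0.286 and 0.897 to 414, 275 and 200.03 CPM (log2 fold change 9.02 ± 0.42, edgeR adjusted p = 5.35e-11). Cxcl9, a ligand of the same receptor, rose from 0.0585, 0.0715 and 0.108 to 9.27, 7.15 and 4.28 CPM (log2 fold change 6.38 ± 0.71). Cxcl1 rose from 0.702, 0.501 and 0.646 to 619, 388 and 157 CPM (log2 fold change 9.28 ± 0.62). Cxcl3 rose from 0.205, 1.29 and 0.430 to 442, 352 and 128 CPM (log2 fold change 8.93 ± 0.76). These 4 genes too were highest in library 1 and lowest in library 3. Cxcl14 fell from 36.1, 35.7 and 34.4 to 5.86, 6.49 and 10.9 CPM (log2 fold change -2.17 ± 0.29), and Pf4 and Cxcl12 were not called, at 0.23 ± 0.29 and -0.47 ± 0.24. No called gene given here had an edgeR adjusted p above 1.84e-05, that of Cxcl14. Exons of Cxcl10 overlap those of other annotated genes, so their reads may be shared.

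Compared per kilobase of exon, which allows levels of different genes to be set side by side, the stimulated mean was 2229 CPM per kb for Tnf, 2210 for Cd14, 1782 for Ccl3, 1363 for Cxcl2 and 1225 for Irg1. It was 694.7 for Ccl4, 385.7 for Ccl5, 207 for Cxcl1, 131.7 for Cxcl10 and 115 for Il1b. Il12b reached 27.3, Nos2 6.79, Il6 3.20 and Il23a 1.05 CPM per kb. The order by level thus differed from the order by fold change: Cxcl1 rose by a larger log2 fold change than Tnf, from a lower start and to a lower level.

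Cytokine and chemokine receptors were split, 10 up and 12 down of 38, with a median of -0.01. The falls included Cx3cr1, Ccr2, Cxcr3 and Cxcr4. Cx3cr1, the fractalkine receptor, fell from 41.1, 27.4 and 28.4 to 1.48, 1.46 and 3.20 CPM (log2 fold change -3.90 ± 0.38). Cxcr4 fell from 422, 359.5 and 433 to 40.1, 49.9 and 60.8 CPM (log2 fold change -3.01 ± 0.25, edgeR adjusted p = 5.37e-08). Cxcr3 fell from 7.13, 5.87 and 7.28 to 0.519, 0.188 and 1.39 CPM (log2 fold change -3.12 ± 0.50). Ccr2 fell from 3.65, 4.22 and 2.76 to 0.371, 0.847 and 0.785 CPM (log2 fold change -2.35 ± 0.41). The groups stood apart for all 4. The falls further included Il6ra, Il21r, Tnfrsf11a, Tnfrsf21, Tnfrsf26, Tgfbr1 and Tgfbr2. Ccrl2, an atypical receptor that binds chemerin, rose from 20.8, 16.9 and 17.8 to 334, 411 and 258 CPM (log2 fold change 4.17 ± 0.22). The death receptor Fas rose from 2.02, 1.79 and 1.97 to 48.1, 37.0 and 47.3 CPM (log2 fold change 4.51 ± 0.27). Fas was nearly as high in library 3 as in library 1. Tnfrsf1b, the second TNF receptor, rose from 1116, 950.4 and 969.7 to 3882, 3962 and 3253 CPM (log2 fold change 1.87 ± 0.15). Il15ra rose from 2.22, 2.00 and 3.12 to 8.01, 10.9 and 9.05 CPM (log2 fold change 1.93 ± 0.35). Csf1r, the receptor of the growth factor these cells depend on, stood at 3255, 2405 and 2466 CPM without and 3886, 3644 and 3713 CPM with LPS and missed the threshold (log2 fold change 0.47 ± 0.19, edgeR adjusted p = 0.080). The largest edgeR adjusted p among the called genes with values here was 3.87e-04, of Il15ra. Exons of Cx3cr1 and Csf1r overlap those of other annotated genes, so their reads may be shared.

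Receptors for lipids, nucleotides and metabolites gave 13 up and 16 down of 42, with a median of -0.26. The formyl peptide receptor Fpr1 rose from 2.28, 1.86 and 2.08 to 149, 60.5 and 51.4 CPM (log2 fold change 5.38 ± 0.43, edgeR adjusted p = 2.55e-08). Its relative Fpr2 rose from 0.819, 1.32 and 0.789 to 78.6, 45.5 and 31.1 CPM (log2 fold change 5.72 ± 0.48). Both were highest in stimulated library 1. Gpr84, a receptor for medium-chain fatty acids, rose from 13.8, 11.2 and 12.7 to 294, 305 and 218 CPM (log2 fold change 4.44 ± 0.33). Adora2a, an adenosine receptor, rose from 3.19, 2.97 and 3.80 to 137, 109.9 and 44.1 CPM (log2 fold change 4.87 ± 0.39). Gpr18 rose from 0.380, 0.143 and 0.323 to 15.1, 9.97 and 6.81 CPM (log2 fold change 5.19 ± 0.48). All 3 had their lowest stimulated value in library 3. Among the falls, Cnr2, the cannabinoid receptor of leukocytes, fell from 62.5, 56.7 and 54.6 to 2.74, 3.25 and 7.16 CPM (log2 fold change -3.66 ± 0.32). Gpr183, a receptor for oxysterols, fell from 20.8, 21.96 and 22.3 to 2.22, 1.27 and 2.90 CPM (log2 fold change -3.31 ± 0.36). Gpr35 fell from 1.46, 0.787 and 1.76 to 0, 0.0470 and 0.118 CPM (log2 fold change -4.09 ± 0.72). Every stimulated library of these 3 lay below every unstimulated one. C5ar1, the receptor for complement C5a, had overlapping groups, at 373, 348 and 459 CPM without and 478, 271 and 209 CPM with LPS (log2 fold change -0.30 ± 0.28, edgeR adjusted p = 0.47). Among the called genes with values here, Gpr35 had the largest edgeR adjusted p, 2.84e-04. Exons of Fpr2 and Gpr84 overlap those of other annotated genes, and Fpr2 has near-identical copies elsewhere in the genome, so their reads may be shared.

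Receptors of phagocytosis, scavenging and the lectin family gave 15 up and 10 down of 45, with a median of 0.24. Clec4e (Mincle), a sensor of mycobacterial glycolipids and of cell death, rose from 12.9, 12.2 and 10.9 to 1596, 1076 and 683 CPM (log2 fold change 6.54 ± 0.41, edgeR adjusted p = 1.25e-09). Marco, a scavenger receptor, rose from 3.16, 1.65 and 1.79 to 41.0, 22.4 and 12.3 CPM (log2 fold change 3.50 ± 0.53). Olr1, the receptor for oxidised LDL, rose from 0.380, 0.286 and 0.251 to 11.3, 7.53 and 8.01 CPM (log2 fold change 4.83 ± 0.34). Clec4e and Marco were lowest in library 3 and Olr1 in library 2. Clec5a rose from 8.42, 9.91 and 9.90 to 98.2, 76.1 and 66.7 CPM (log2 fold change 3.09 ± 0.29). The inhibitory receptor Siglece rose from 0.936, 0.751 and 1.26 to 14.2, 9.88 and 13.0 CPM (log2 fold change 3.65 ± 0.39). Mertk, which binds dying cells, fell from 161, 129 and 136 to 19.1, 18.9 and 21.9 CPM (log2 fold change -2.82 ± 0.22, edgeR adjusted p = 2.03e-08). The Fc receptor Fcgr1 fell from 101, 85.0 and 83.7 to 28.7, 17.9 and 27.5 CPM (log2 fold change -1.86 ± 0.30). Fcgr3 fell from 455, 365 and 362 to 132, 137 and 213 CPM (log2 fold change -1.29 ± 0.34). The groups of these 3 genes did not overlap. Stab1, a clearance receptor, was among the 10 largest losses in CPM, from 1419, 1219 and 1537 to 592, 781 and 670.1 CPM (log2 fold change -1.03 ± 0.17). The edgeR adjusted p of the called genes given was at most 0.0085, that of Fcgr3. Without unstimulated library 1 or stimulated library 2, 6 of these receptors fell in place of 10. Exons of Stab1 overlap those of other annotated genes, and Fcgr3 has near-identical copies elsewhere in the genome, so their reads may be shared.

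Interferon-stimulated genes rose while Ifnb1 itself had at most 5 counts in a library. Of 39 antiviral genes tested 25 rose and 0 fell, with a median of 1.25, and of 13 interferon-inducible GTPases 11 rose and 0 fell, with a median of 3.60. The latter median was 1.12 with limma on log2(CPM + 1), a scale that understates changes of low genes. Rsad2 (viperin) rose from 4.01, 4.90 and 2.48 to 194, 135 and 70.0 CPM (log2 fold change 5.13 ± 0.41, edgeR adjusted p = 3.11e-08). Ifit1 rose from 3.74, 4.54 and 1.83 to 109, 100.3 and 66.5 CPM (log2 fold change 4.76 ± 0.32). Both genes code for inhibitors of viral replication. Mx1, an antiviral GTPase, rose from 0.555, 1.18 and 0.359 to 30.03, 17.9 and 8.08 CPM (log2 fold change 4.73 ± 0.85). Isg15, a ubiquitin-like modifier, rose from 5.15, 4.72 and 4.13 to 110.0, 86.6 and 49.4 CPM (log2 fold change 4.13 ± 0.40). Unstimulated library 3 was the lowest of its group for these 4 genes, and stimulated library 3 as well. The GTPases that rose were Gbp2, Gbp3, Gbp5, Gbp6, Gbp7, Igtp, Irgm1, Irgm2, Iigp1, Tgtp1 and Tgtp2. Gbp5 rose from 0.351, 0.215 and 0.359 to 185, 190.0 and 102 CPM (log2 fold change 8.98 ± 0.50, edgeR adjusted p = 3.16e-10). Gbp2 rose from 3.57, 2.83 and 2.80 to 170.2, 155 and 95.9 CPM (log2 fold change 5.51 ± 0.42). Bst2 and Trim25 were not called, at 0.14 ± 0.20 and -0.29 ± 0.23. Mx1, with an edgeR adjusted p of 3.62e-04, was the closest to the threshold among the called genes with values here. Exons of Gbp2 overlap those of other annotated genes, and Isg15 has near-identical copies elsewhere in the genome, so their reads may be shared.

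Some of these genes lie side by side (annotation GENCODE M21, build GRCm38). Risen genes of the Ifit cluster lay between positions 34550694 and 34650009 of chromosome 19, and risen genes of the Gbp cluster between 142493978 and 142638008 of chromosome 3. Both runs were chosen after their values were seen. Reads from such related neighbours can be assigned to the wrong copy.

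Surface molecules for T cells rose for the most part, 12 up and 3 down of 21, with a median of 0.93. Cd40, the receptor of the T cell ligand CD40L, rose from 4.12, 3.50 and 3.16 to 309, 299.8 and 132 CPM (log2 fold change 6.10 ± 0.39, edgeR adjusted p = 1.53e-09). Icosl, the ligand of ICOS, rose from 5.09, 5.87 and 5.42 to 114, 101 and 90.9 CPM (log2 fold change 4.22 ± 0.26, edgeR adjusted p = 1.19e-09). Cd83 rose from 20.3, 20.5 and 15.1 to 122, 147 and 111 CPM (log2 fold change 2.76 ± 0.21). Cd40 was lowest in library 3, while Icosl and Cd83 varied less. The checkpoint receptor Havcr2 (TIM-3) fell from 37.4, 37.5 and 39.6 to 4.89, 4.14 and 6.14 CPM (log2 fold change -2.90 ± 0.27). The checkpoint molecule VISTA (Vsir, listed as 4632428N05Rik) fell from 642, 491 and 540.3 to 188, 221 and 249 CPM (log2 fold change -1.35 ± 0.25). In the MHC class I and immunoproteasome list 14 of 19 rose and 0 fell, with a median of 0.84, led by H2-Q4, which rose from 86.5, 85.6 and 54.7 to 331, 351 and 253 CPM (log2 fold change 2.04 ± 0.23), and including the proteasome activator Psme2, which rose from 39.9, 49.6 and 54.4 to 229, 146 and 161 CPM (log2 fold change 1.90 ± 0.25). Of 8 MHC class II genes 1 rose and 0 fell: Ciita, the class II transactivator, rose from 2.75, 1.57 and 2.30 to 6.97, 8.56 and 4.65 CPM (log2 fold change 1.60 ± 0.37), while Cd74 and H2-Ab1 were not called, at 0.24 ± 0.32 and 0.37 ± 0.37. No called gene given here had an edgeR adjusted p above 0.0036, that of Ciita. Exons of H2-Q4, Ciita and Cd74 overlap those of other annotated genes, and H2-Q4 and Psme2 have near-identical copies elsewhere in the genome, so their reads may be shared.

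Adhesion and cytoskeleton genes gave 19 up and 3 down of 33, with a median of 0.55. Icam1 rose from 76.9, 70.7 and 63.7 to 2308, 2618 and 1448 CPM (log2 fold change 4.91 ± 0.24, edgeR adjusted p = 9.01e-11). Vcam1, a ligand of leukocyte integrins, rose from 4.30, 4.18 and 4.05 to 65.7, 65.9 and 67.3 CPM (log2 fold change 3.99 ± 0.23). The stimulated values of Vcam1 were nearly equal across the 3 libraries, as were those of Ccl2 and Ripk2, so the lower values in library 3 were not shared by all strong risers. Marcksl1, an actin regulator, rose from 20.8, 25.3 and 21.8 to 816, 467 and 363 CPM (log2 fold change 4.60 ± 0.30). Sdc4, a heparan sulfate proteoglycan, rose from 84.8, 75.0 and 90.6 to 1018, 970.1 and 567 CPM (log2 fold change 3.35 ± 0.30). Both were lowest in library 3. Itga6, an integrin chain for laminin, fell from 222, 198 and 183 to 34.0, 38.2 and 41.2 CPM (log2 fold change -2.41 ± 0.18). Itgb5, which pairs with the alpha v chain, fell from 831, 644 and 745 to 181, 192 and 239.7 CPM (log2 fold change -1.86 ± 0.22). The stimulated values of both integrin genes lay far below the unstimulated ones. Of 32 proteases, inhibitors and matrix genes 14 rose and 5 fell, with a median of 0.34. Mmp13, a collagenase, rose from 4.41, 5.87 and 4.45 to 65.8, 66.3 and 27.4 CPM (log2 fold change 3.43 ± 0.42). Adamts4, which cuts aggrecan, rose from 2.57, 2.40 and 4.34 to 45.3, 50.5 and 14.8 CPM (log2 fold change 3.57 ± 0.46). Both had their lowest stimulated value in library 3. Plau, the urokinase gene, and Timp2 fell, with log2 fold changes of -1.33 ± 0.32 and -0.75 ± 0.20. Ptx3, a soluble pattern receptor, rose from 2.31, 2.04 and 2.30 to 31.1, 35.0 and 20.9 CPM (log2 fold change 3.70 ± 0.43). Of 10 complement genes 3 rose and 1 fell, 40.0% called against 25.3% of all genes. C3 rose from 60.6, 42.1 and 42.3 to 417, 279 and 206 CPM (log2 fold change 2.64 ± 0.29). The largest edgeR adjusted p among the called genes given here was 0.010, of Timp2. The number of protease and matrix genes that fell, 5, was 2 to 3 without unstimulated library 3 or stimulated library 1 or 2. Exons of Icam1, Vcam1 and Adamts4 overlap those of other annotated genes, and Itga6 and Itgb5 have near-identical copies elsewhere in the genome, so their reads may be shared.

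Genes of inducible prostaglandin synthesis rose. Ptgs2 (COX-2) rose from 17.8, 20.2 and 24.1 to 622, 447 and 158 CPM (log2 fold change 4.30 ± 0.49, edgeR adjusted p = 2.23e-06). Ptges, which makes prostaglandin E2 from its product, rose from 7.08, 8.48 and 9.22 to 381, 226 and 118 CPM (log2 fold change 4.87 ± 0.37). Both were highest in library 1 and lowest in library 3. Ptgs1 (COX-1) fell from 18.7, 16.6 and 16.3 to 5.19, 7.06 and 7.59 CPM (log2 fold change -1.37 ± 0.26), and Hpgds, which makes prostaglandin D2, fell (log2 fold change -0.88 ± 0.21). In the whole eicosanoid list 6 of 18 rose and 3 fell, with a median of -0.12. Among the called genes with values here, Hpgds had the largest edgeR adjusted p, 0.0039. Exons of Ptgs1 overlap those of other annotated genes, so their reads may be shared.

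Around Irg1 and Nos2, genes of arginine and tetrahydrobiopterin metabolism gave 6 up and 3 down of 18, with a median of 0.17. Gch1, the first enzyme towards the tetrahydrobiopterin cofactor of nitric oxide synthase, rose from 17.5, 17.7 and 17.5 to 115, 92.7 and 67.0 CPM (log2 fold change 2.38 ± 0.22). Slc7a2, an arginine transporter, rose from 18.0, 15.4 and 14.9 to 89.0, 71.9 and 41.8 CPM (log2 fold change 2.07 ± 0.32). Arg2, the mitochondrial arginase, rose from 4.09, 3.50 and 3.41 to 13.5, 9.55 and 10.8 CPM (log2 fold change 1.62 ± 0.22). The groups did not overlap for these 3 genes. Among solute carriers 18 of 34 rose and 6 fell, with a median of 0.83. Slc7a11, the cystine importer, rose from 8.16, 10.4 and 8.86 to 732, 653 and 501 CPM (log2 fold change 6.11 ± 0.34, edgeR adjusted p = 2.45e-10). Slc2a6, a hexose carrier of lysosomes, rose from 23.9, 22.1 and 22.1 to 563, 524 and 227 CPM (log2 fold change 4.27 ± 0.34). Slc7a11 and Slc2a6 were lowest in stimulated library 3. Slc2a3, the glucose carrier GLUT3, fell from 10.3, 7.65 and 6.57 to 2.15, 2.96 and 1.67 CPM (log2 fold change -1.87 ± 0.27). The copper carrier Slc31a2 rose with nearly equal stimulated values, from 87.4, 75.5 and 89.1 to 529, 463 and 529 CPM (log2 fold change 2.59 ± 0.15). Slc46a3 and Slco2b1 fell, with log2 fold changes of -2.33 ± 0.27 and -3.76 ± 0.60. The edgeR adjusted p of the called genes given was at most 9.96e-05, that of Slco2b1. Exons of Slc7a2, Arg2 and Slco2b1 overlap those of other annotated genes, and Slc7a11 has near-identical copies elsewhere in the genome, so their reads may be shared.

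Glycolytic enzymes were called in both directions: 3 of 17 rose and 4 fell, with a median of -0.05. Pfkp rose from 81.8, 69.3 and 82.9 to 174, 199 and 174 CPM (log2 fold change 1.23 ± 0.15). Pfkfb3, which makes the activator fructose 2,6-bisphosphate, fell from 68.5, 67.5 and 67.7 to 32.5, 31.8 and 28.8 CPM (log2 fold change -1.13 ± 0.13, edgeR adjusted p = 2.18e-06). Aldoa, Gapdh and Pkm were not called, at 0.41 ± 0.23, 0.29 ± 0.39 and 0.16 ± 0.27. Of 24 genes of the tricarboxylic acid cycle 7 rose and 2 fell, 37.5% called against 25.3% of all genes, with a median of 0.03. Me1, the malic enzyme, rose from 8.33, 8.26 and 11.2 to 26.6, 26.7 and 32.2 CPM (log2 fold change 1.62 ± 0.21). Pdk1, which shuts off pyruvate dehydrogenase, fell from 28.4, 30.1 and 24.5 to 11.9, 11.8 and 13.2 CPM (log2 fold change -1.17 ± 0.16). Nuclear genes of the respiratory chain gave 1 call in 28, genes of the mitochondrial genome 0 in 13 by edgeR, and cytosolic ribosomal proteins 1 in 35, against 25.3% of all genes. The median of the ribosomal list was nonetheless 0.36 and that of the mitochondrial list -0.56. No mitochondrial gene had an unadjusted p under 0.05, but 4 fell with no filter on low counts, and 1 fell with library totals, in the fit of the 6 libraries alone, without the pair of 1xLPS libraries and without stimulated library 1. The mitochondrial median was -0.34 without unstimulated library 2. Pdk1, with an edgeR adjusted p of 2.44e-05, was the closest to the threshold among the called genes given here. Without unstimulated library 1, 2 or 3 or stimulated library 2 or 3, 3 to 4 genes of the tricarboxylic acid cycle rose in place of 7, and with scaling to library totals, no filter on low counts or the replicate block it was 3 to 4. There were 0 ribosomal protein genes that rose, in place of 1, without unstimulated library 1 or 2 or stimulated library 2 or 3, and 0 to 10 with scaling to library totals, no filter on low counts, the replicate block, leaving out a pair of 1xLPS libraries or a fit of the 6 libraries alone. Exons of Pfkp, Gapdh, Pkm and Me1 overlap those of other annotated genes, and Gapdh, Pkm and Me1 have near-identical copies elsewhere in the genome, so their reads may be shared.

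Genes of oxidative stress and iron gave 19 up and 2 down of 34, with a median of 0.72. Srxn1, the sulfiredoxin of the NRF2 programme, rose from 215, 210.5 and 217 to 1195, 1243 and 1211 CPM (log2 fold change 2.50 ± 0.14, edgeR adjusted p = 3.58e-10). Txnrd1, thioredoxin reductase, rose from 486, 514 and 494 to 2679, 2409 and 1640 CPM (log2 fold change 2.17 ± 0.24). Sod2, the mitochondrial superoxide dismutase, rose from 95.05, 82.3 and 86.6 to 908, 695 and 528 CPM (log2 fold change 3.01 ± 0.25). Srxn1 was nearly equal in the stimulated libraries, whereas Txnrd1 and Sod2 were lowest in library 3. Cybb, the catalytic subunit of the phagocyte oxidase, rose from 514, 433 and 370.3 to 2065, 1838 and 1662 CPM (log2 fold change 2.08 ± 0.28). Txnip, an inhibitor of thioredoxin, fell from 339, 296 and 290.3 to 152, 139 and 145 CPM (log2 fold change -1.08 ± 0.16). The ferritin genes Fth1 and Ftl1 were not called, at 0.05 ± 0.21 and 0.28 ± 0.20. Of 27 genes of the unfolded protein and amino acid responses 15 rose and 1 fell, with a median of 0.70. Herpud1, of the degradation machinery, rose from 29.1, 29.8 and 31.4 to 263, 313 and 274 CPM (log2 fold change 3.24 ± 0.17, edgeR adjusted p = 1.28e-10). Chac1, which degrades glutathione, rose from 8.33, 5.15 and 8.25 to 105, 72.5 and 78.7 CPM (log2 fold change 3.56 ± 0.36). Trib3 rose from 35.8, 34.9 and 28.7 to 159, 169.5 and 149 CPM (log2 fold change 2.26 ± 0.20). Herpud1 was highest in library 2 and Chac1 in library 1. Asns, asparagine synthetase, rose from 52.3, 53.1 and 55.3 to 201, 206 and 226 CPM (log2 fold change 1.98 ± 0.18). The chaperones Hspa5 and Hsp90b1 were not called, at 0.38 ± 0.16 and -0.19 ± 0.22. No called gene given here had an edgeR adjusted p above 5.89e-05, that of Txnip. Exons of Txnip, Ftl1 and Hsp90b1 overlap those of other annotated genes, and Ftl1 has near-identical copies elsewhere in the genome, so their reads may be shared.

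Nucleotide and NAD enzymes gave 7 up and 4 down of 24, with a median of 0.0028. Cmpk2, a mitochondrial kinase next to Rsad2, rose from 6.31, 8.26 and 2.30 to 134, 92.7 and 52.7 CPM (log2 fold change 4.04 ± 0.50, edgeR adjusted p = 6.09e-06). Ampd3, an AMP deaminase, rose from 83.7, 75.8 and 90.2 to 628, 714 and 677 CPM (log2 fold change 3.01 ± 0.15). Cd38, which degrades NAD, rose from 0.0292, 0.143 and 0.0359 to 4.38, 2.82 and 0.314 CPM (log2 fold change 5.08 ± 1.00), with 0.314 CPM in library 3 close to the unstimulated values. Entpd1 (CD39), which degrades extracellular ATP, fell from 135, 109.7 and 143 to 33.1, 28.6 and 38.7 CPM (log2 fold change -1.95 ± 0.23). Lipid genes gave 11 up and 5 down of 34, with a median of 0.15. Ch25h, which makes 25-hydroxycholesterol, rose from 0.526, 1.22 and 0.969 to 9.49, 9.93 and 5.02 CPM (log2 fold change 3.17 ± 0.44). Acsl1, an acyl-CoA synthetase, rose from 65.7, 64.3 and 52.3 to 482, 344 and 224 CPM (log2 fold change 2.52 ± 0.23). Lpl rose, from 1256, 1228 and 1086 to 2164, 2300 and 3298 CPM (log2 fold change 1.12 ± 0.23), and was highest in library 3. Soat1 and Cpt1a fell, with log2 fold changes of -1.20 ± 0.19 and -0.71 ± 0.16, and Apoe had 15666, 17930 and 11749 CPM without and 12520, 9922 and 6519 CPM with LPS (log2 fold change -0.65 ± 0.31, edgeR adjusted p = 0.13). The largest edgeR adjusted p among the called genes given here was 0.0025, of Cpt1a. With scaling to library totals, 7 lipid genes rose in place of 11. The number of lipid genes that fell, 5, was 3 without stimulated library 2. Exons of Ampd3, Ch25h and Acsl1 overlap those of other annotated genes, so their reads may be shared.

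Genes of survival and death were called mostly upwards, 17 of 33 in a list of BCL2 relatives, inhibitors of apoptosis and death genes, with 2 down and a median of 0.64. Bcl2a1d, a copy of the anti-apoptotic A1 gene, rose from 1.93, 2.25 and 2.37 to 89.0, 49.3 and 25.0 CPM (log2 fold change 4.63 ± 0.47). Bcl2a1a, another copy, rose from 2.63, 3.36 and 2.94 to 55.2, 29.5 and 9.75 CPM (log2 fold change 3.39 ± 0.55). Cflar, the inhibitor of caspase 8, rose from 70.6, 75.9 and 75.8 to 656, 544 and 423 CPM (log2 fold change 2.87 ± 0.29). Library 3 was the lowest for all 3. The kinase Pim1 rose from 61.8, 69.5 and 70.5 to 932, 842 and 429 CPM (log2 fold change 3.45 ± 0.28). Bmf, which promotes apoptosis, fell from 34.6, 26.1 and 29.7 to 7.34, 9.78 and 9.58 CPM (log2 fold change -1.75 ± 0.21). Cdkn1a (p21), the cell cycle inhibitor, rose from 99.9, 99.0 and 119.6 to 1800, 1459 and 1088 CPM (log2 fold change 3.77 ± 0.23, edgeR adjusted p = 9.42e-10). In the cell cycle list 3 of 36 rose and 9 fell, 33.3% called against 25.3% of all genes, with a median of -0.32. E2f2 fell from 20.7, 20.6 and 19.8 to 3.41, 3.58 and 3.65 CPM (log2 fold change -2.52 ± 0.24, edgeR adjusted p = 2.94e-07). Ccnd1, cyclin D1, fell from 88.6, 91.8 and 88.4 to 18.1, 23.5 and 29.4 CPM (log2 fold change -1.91 ± 0.29). Mcm2 and Mcm6, of the replicative helicase, fell by less, with log2 fold changes of -0.79 ± 0.20 and -0.93 ± 0.19, while Mki67 rose, from 22.9, 21.4 and 21.3 to 74.4, 67.2 and 62.2 CPM (log2 fold change 1.63 ± 0.19). Pcna was not called, at 0.44 ± 0.21. Among the called genes with values here, Mcm2 had the largest edgeR adjusted p, 0.0072. With scaling to library totals, 11 survival and death genes rose in place of 17. Exons of Pim1, Cdkn1a and Ccnd1 overlap those of other annotated genes, and Bcl2a1d, Bcl2a1a, Cflar, Mki67 and Pcna have near-identical copies elsewhere in the genome, so their reads may be shared.

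Of 42 enzymes that modify histones or DNA, 3 rose and 5 fell, a share of 19.05% against 25.3% of all genes, with a median of 0.04. Kdm6b, the demethylase JMJD3, rose from 12.3, 14.5 and 13.7 to 79.8, 87.9 and 51.8 CPM (log2 fold change 2.44 ± 0.28, edgeR adjusted p = 3.17e-06). Dnmt1, the maintenance DNA methyltransferase, fell from 166, 167 and 161 to 51.5, 75.6 and 77.5 CPM (log2 fold change -1.27 ± 0.15). Among alpha-arrestins and ubiquitin ligases 9 of 24 rose and 7 fell, with a median of 0.06. Arrdc4 rose from 19.4, 18.3 and 17.8 to 62.9, 56.1 and 47.1 CPM (log2 fold change 1.58 ± 0.24), opposite to its relatives Arrdc3 and Txnip. Trim13 rose from 4.56, 4.33 and 5.20 to 63.0, 47.3 and 51.1 CPM (log2 fold change 3.52 ± 0.17). Rnf144b, a ubiquitin ligase, fell from 36.8, 30.8 and 30.9 to 2.60, 3.15 and 2.47 CPM (log2 fold change -3.59 ± 0.32). March1, the ligase that removes MHC class II and CD86 from the surface, fell from 16.1, 17.8 and 16.8 to 6.38, 6.12 and 3.57 CPM (log2 fold change -1.68 ± 0.28). The edgeR adjusted p of the called genes given was at most 1.73e-04, that of March1. The number of histone or DNA enzymes that fell, 5, was 8 with scaling to library totals. Without unstimulated library 1 or 2 or stimulated library 3, 4 to 5 arrestin and ligase genes rose in place of 9, and with scaling to library totals it was 4. Exons of Kdm6b and March1 overlap those of other annotated genes, and Trim13 has near-identical copies elsewhere in the genome, so their reads may be shared.

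In a list of long non-coding and host RNAs, 2 of 14 tested rose and 0 fell, with a median of -0.06. The list did not stand for its class. Over all 319 long non-coding genes tested, 20 (6.27%) rose and 56 (17.6%) fell, with a median of -0.60. Over all genes tested, 14.0% rose and 11.3% fell. Gm26667, the host of miR-155 (Mir155hg), had 0.0292, 0 and 0.0359 CPM without and 4.52, 2.16 and 1.45 CPM with LPS (edgeR adjusted p = 2.54e-05). Mir22hg rose from 15.6, 22.3 and 25.9 to 74.1, 54.4 and 54.6 CPM (log2 fold change 1.52 ± 0.27). Neat1, the scaffold of paraspeckles, had 570.0, 665 and 885 CPM without and 374, 218 and 182 CPM with LPS and missed the threshold (log2 fold change -1.46 ± 0.60, edgeR adjusted p = 0.085), although its groups did not overlap. Mir22hg, with an edgeR adjusted p of 2.91e-04, was the closest to the threshold among the called genes given here. Exons of Gm26667, Mir22hg and Neat1 overlap those of other annotated genes, so their reads may be shared.

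**Figure D4:**
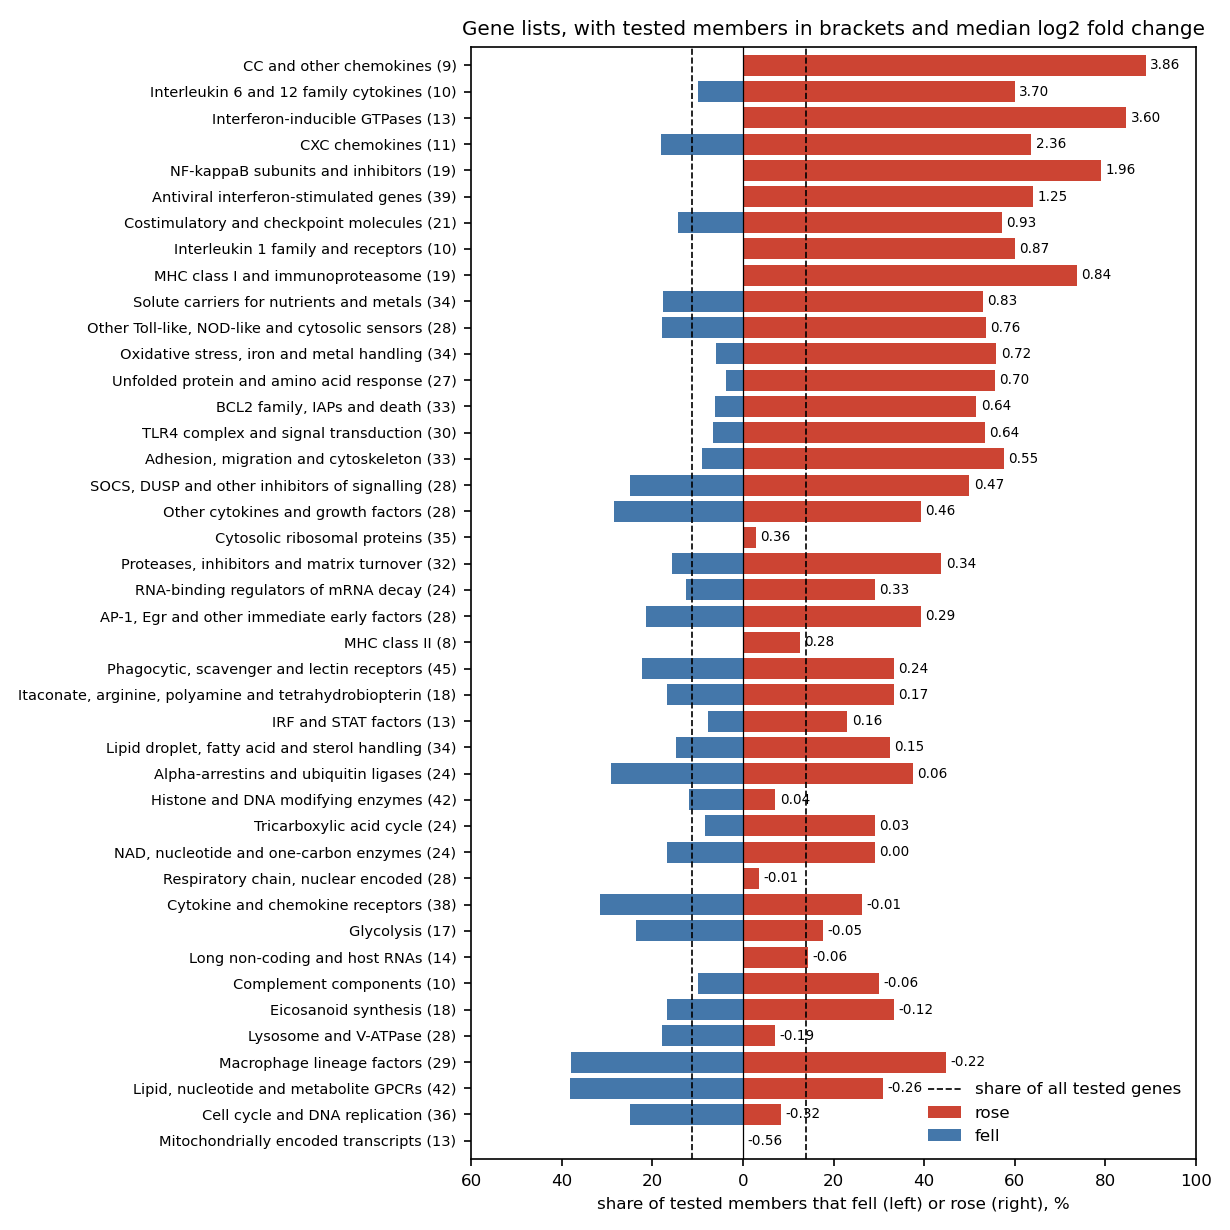
Share of the tested members of each gene list that rose (right) or fell (left) with LPS, in percent, with the list's median log2 fold change printed beside it. The dashed lines mark 14.0% risen and 11.3% fallen over all 14158 genes tested. CC chemokines, interferon-inducible GTPases and the NF-kappaB list reach furthest right, and the ribosomal, respiratory chain and mitochondrial lists stay near 0 on both sides.

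The cells carried macrophage markers in all 6 libraries, with the summed list between 24867 and 33339 CPM. Among the 13 markers Cd14 and Emr1 (F4/80) rose and Cx3cr1, Mertk and Fcgr1 fell. Markers of other cells were low: the summed neutrophil list held 94.9 to 143 CPM, B cells 24.8 to 57.6, T and NK cells 2.96 to 7.78, dendritic cells 1.14 to 3.98, mast cells and basophils 3.33 to 6.30 with Mcpt4 at 0 counts in all 6, and erythroid and megakaryocyte cells 3.62 to 9.01. Stromal and endothelial markers summed to between 1591 and 1909 CPM without LPS and to between 2639 and 3305 CPM with it. Of 12 tested, Col1a1, Col1a2, Col3a1 and Acta2 rose and Kdr and Pecam1 fell. Col3a1 rose from 108, 103 and 85.7 to 138, 183 and 253 CPM (log2 fold change 0.96 ± 0.23), highest in stimulated library 3, and Kdr fell from 13.9, 13.8 and 13.4 to 4.38, 5.27 and 4.49 CPM (log2 fold change -1.54 ± 0.21). The part of stromal cells in the matrix and adhesion genes above was not tested. Of Col3a1 and Kdr, the called genes with values here, Col3a1 had the larger edgeR adjusted p, 0.0039. Emr1 lost its call in 6 of the alternatives tried, Col1a2 in 4, Acta2 in 3 and Col1a1 in 2. The other called markers named here kept theirs. Exons of Col3a1 overlap those of other annotated genes, so their reads may be shared.

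The same LPS contrast in the other arms gave fewer calls, 1705 up (12.0%) and 1523 down (10.8%) after 1xLPS and 1506 up (10.6%) and 1174 down (8.29%) after 4xLPS. No control libraries are shared between these 3 contrasts, but the fit shares 1 estimate of the spread. Of the 1982 genes that rose here, 1234 also rose after 1xLPS, 62.3% of the list here and 72.4% of the list there, and 1226 after 4xLPS, 61.9% and 81.4%. Of the 1597 that fell, 1014 also fell after 1xLPS (63.5% and 66.6%) and 918 after 4xLPS (57.5% and 78.2%). Called in neither of the other arms were 570 of the risen (28.8%) and 468 of the fallen (29.3%). Those counts do not show that the arms differ. The test of the difference itself found 0 genes against 1xLPS by edgeR, with 1154 at an unadjusted p under 0.05, 34 by DESeq2 and 0 by limma, and 0 against 4xLPS, with 803 at an unadjusted p under 0.05 and 6 by DESeq2.

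Single genes differed in size between the arms without passing the test. Tnf had log2 fold changes of 7.36 ± 0.35 here, 6.25 after 1xLPS and 6.07 after 4xLPS. The differences from here, -1.11 ± 0.38 and -1.29 ± 0.38, did not pass (edgeR adjusted p = 0.45 and 0.81). Ccl3 had 6.89 here, 5.43 after 1xLPS and 5.62 after 4xLPS, with differences of -1.45 ± 0.39 and -1.27 ± 0.39 (edgeR adjusted p = 0.36 and 0.81). All 15 of the genes with the largest rises had larger values here than in both other arms, but they were picked for their size here, which favours that outcome.

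**Figure D5:**
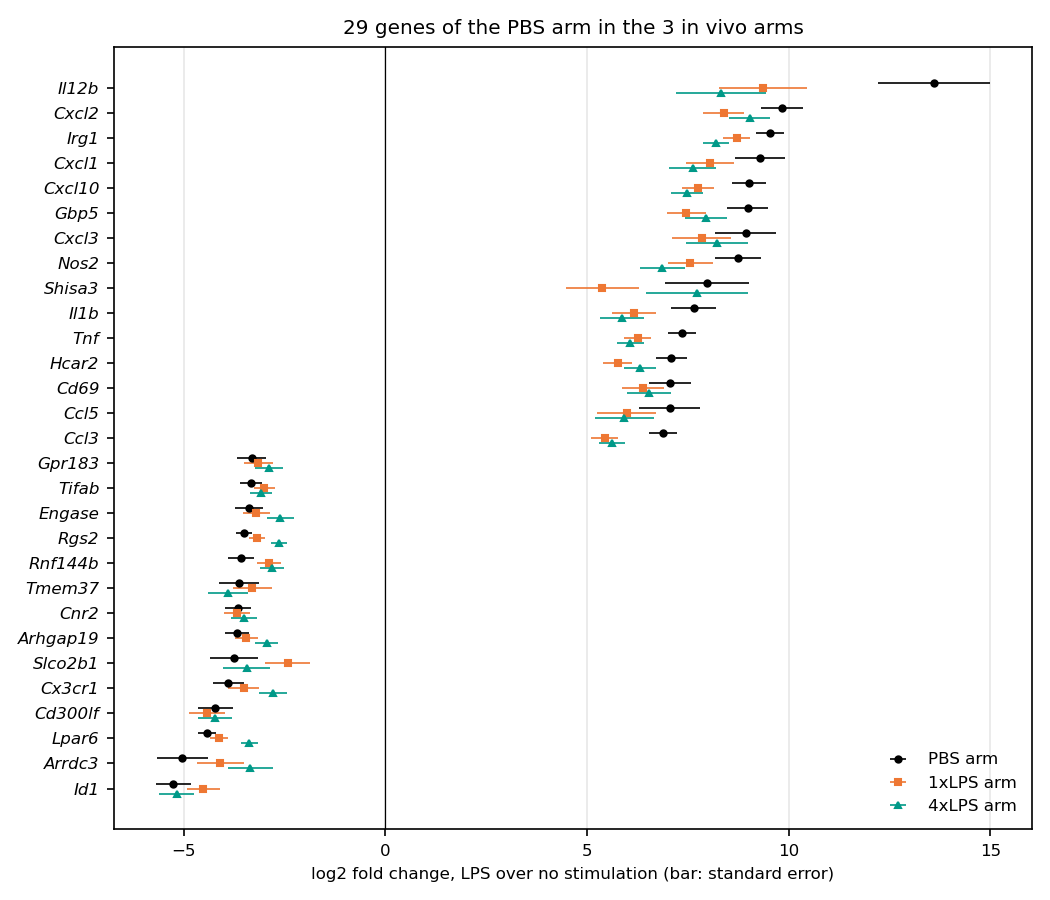
Log2 fold change of LPS over no LPS (horizontal) in the PBS, 1xLPS and 4xLPS arms for 29 genes (vertical). The genes were chosen by the size of their change in the PBS arm. Bars show the standard error as derived from the F statistic. Il12b had no count in the unstimulated PBS libraries, so its fitted value depends on the prior count. The 3 arms share a direction for these genes, and no difference between arms passed the edgeR test.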

How the data were processed

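RNA of macrophages grown from mouse bone marrow was purified with RNeasy, selected for polyA with Dynabeads mRNA DIRECT and sequenced on an Ion Proton instrument with the Ion Total RNA-seq Kit v2, per the labels' protocols. The submitters' processing notes name Torrent Suite 5.12, TopHat2, Bowtie2, Cufflinks and the build mm10. The authors deposited raw read counts per gene symbol, in whole numbers. Neither the labels nor the file name the counting program, its annotation or its use of strand.

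From these counts, 14158 of 43280 symbols were kept, those with at least 1 CPM (counts per 1000000) in at least 3 of the 18 libraries. edgeR 4.0.16 (R 4.3.3) was fitted to all 18 libraries with 6 group means, TMM scaling and the quasi-likelihood test, two-sided, with Benjamini-Hochberg adjustment and a threshold of 0.05. The code was tested on simulated counts. No 2 replicates agreed within sampling noise. A fold against a group without counts is a lower bound from a floor of 3 counts over the group, which covers counting error only. Levels per kilobase use GENCODE M21 exon lengths, and promoters come from RefSeq. Named genes were the 15 largest rises and falls with groups that did not overlap and at least 5 CPM in the higher group, the 10 largest gains and losses in CPM, a panel of 10 LPS genes, and in each list up to 6 risen, 4 fallen and 3 genes not called. The lists and members were chosen with earlier results of these data known. Alternatives with DESeq2 1.42.0, limma 3.58.1, other scalings and filters, a replicate block and libraries left out stand in the closing section. 1 gene among the largest falls is not reported here. The authors' verdicts on comparisons, deposited in words, were not used.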

Additional observations from a re-analysis of the deposited data

How the results depend on the processing

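The count of 3579 called genes lay between 3162 and 4151 with DESeq2, RLE factors, library totals, no filter on low counts, a filter within the 6 libraries, limma-trend, limma voom and the replicate block. It was 2691 to 3067 when 1 of the 6 libraries was left out, 4567 when the 6 libraries were fitted alone, and 5095 without a pair of 1xLPS libraries (NO 1 and LPS 3) that stand apart. It was 1839 when a change of at least 2-fold was asked for beside the adjusted p. The share of calls that rose, 55.4%, fell to 31.3% (1239 up, 2723 down) with scaling to library totals. Of the 3579 calls, 2836 were also made, in the same direction, with library totals, 2696 with no filter and 2668 to 2866 with 1 library left out, and 0 took the opposite sign under the alternatives tried. Among 468 named genes tested, 333 were called and 284 of these under every alternative, and 0 of the alternative values reversed a call.

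The test of a difference from the 1xLPS arm gave 0 genes, 34 with DESeq2, 144 with no filter on low counts and 0 to 17 with 1 library left out (17 without PBS_LPS library 1). From the 4xLPS arm it gave 0 genes, 6 with DESeq2 and 33 with no filter. The cause was not tested. The replicate numbers are shared by the groups, but libraries with the same number did not deviate together (correlations of -0.13, 0.06 and 0.02). A replicate block gave 3162 calls, 1741 up and 1421 down, 3026 of them shared with the fit without it in the same direction. With library totals, list medians fell from 0.64 to 0.42 (TLR4 signalling), 0.47 to 0.25 (inhibitors of signalling), 0.46 to 0.25 (other cytokines), 0.55 to 0.33 (adhesion) and 0.64 to 0.43 (survival and death). With the filter within the 6 libraries the median of the other cytokines was 0.285. Of 50 list medians, 14 changed sign under an alternative, and the largest of these was 0.28 in size as reported.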
